A study of Mus musculus with 6 samples.

Results

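The genes described here are 9 surface components and transcription factors of the Hedgehog pathway, namely the receptors Ptch1 and Smo, the ligand-binding protein Hhip, the co-receptors Boc, Cdon and Gas1, and the transcription factors Gli1, Gli2 and Gli3. They were taken by symbol and not by a rule on their measured values, although earlier results of these data were known. They are 9 of the 23352 genes in the deposited tables. RNA sequencing was done on 6 populations, P1 to P6, sorted from the stroma of the omentum of untreated WT mice of the C57BL/6 strain. The question behind the sort was which stromal cells of omental milky spots, small lymphoid clusters in this abdominal fat, carry high activity of aldehyde dehydrogenase (ALDH), which makes retinoic acid. P1, P2 and P3 were CD45-CD140a+CD105+ cells with high, intermediate and low ALDH activity, and the study treats them as fibroblastic reticular cells, the fibroblasts of lymphoid tissue. P4 and P5 were CD140a+CD105- cells with intermediate and low ALDH activity, and P6 held CD140a low cells with ALDH activity. The ages of the mice and the number of mice per sort were not given in the sources used here, and each population was 1 library with no replicate, so no statistical test was possible.

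In the Hedgehog pathway, a secreted ligand (Shh, Ihh or Dhh) binds the membrane protein Ptch1, which in the absence of ligand keeps the signal transducer Smo inactive. Boc, Cdon and Gas1 are co-receptors that help present the ligand to Ptch1, whereas Hhip captures the ligand and limits its range. Active Smo gathers at the primary cilium and changes how the Gli factors are processed: Gli2 is known mainly as an activator, Gli3 mainly as a repressor when no ligand is bound, and Gli1 is an activator made in response to the pathway itself. Gli1, Ptch1 and Hhip are classical targets of the pathway and are often read as signs of its activity in fibroblasts of connective tissue. RNA levels alone do not measure that activity.

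The sort was checked first on the genes of its own gates. Eng, which encodes CD105, was at 42.6 to 52.4 FPKM in the CD105+ populations and at 0.231 to 0.728 FPKM in the others. FPKM counts fragments per kilobase of transcript, scaled to the mapped fragments of a library, so levels are per length. Pdgfra, which encodes CD140a, was at 117 to 154 FPKM in P1 to P5 and at 5.36 FPKM in P6, and Ptprc (CD45) was at or below 0.755 FPKM in all 6. Aldh1a2 was highest in P1 at 469 FPKM, and followed the ALDH gate from P4 (intermediate, 285 FPKM) to P5 (low, 145 FPKM), but not from P2 (intermediate, 78.8 FPKM) to P3 (low, 134 FPKM). Markers of mesothelial cells, the lining of the abdominal organs, were found in the table for 11 of 12 listed genes and summed to 97.3, 123 and 197 FPKM in P1, P2 and P3, to 1379 and 1128 FPKM in P4 and P5, and to 3692 FPKM in P6. Markers of pancreatic acinar cells summed to 4.19, 231, 24.4, 1233, 149 and 1800 FPKM in P1 to P6. In such bulk libraries, fewer cells of a type and less RNA per cell cannot be told apart. The depth, recovered from the value of single reads, was 53.4 to 61.8 M reads in P1 to P5 and 37 M reads in P6. The most frequent low value was taken as 1 read in P1 to P5 but as 2 reads in P6. The estimated reads and intervals of P6 rest on that choice. All intervals in the text are 95% intervals for counting error on the estimated reads and do not cover the spread between mice or sorts.

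The 3 Gli genes are close relatives, so the sequences that could blur their counts are shown before the values. Their most alike 120 coding bases lie in the DNA-binding zinc fingers, and 96 of these bases were the same in all 3 genes. Capitals below mark the bases that were not the same in all 3, read 5′ to 3′ from the GENCODE transcripts of build GRCm38 (mm10). The Gli1 stretch spans exons 10 and 11 at chr10:127333715-127334234 on the minus strand, that of Gli2 exons 11 and 12 at chr1:118842114-118844386 on the minus strand, and that of Gli3 exons 12 and 13 at chr13:15715079-15720138 on the plus strand.
Gli1: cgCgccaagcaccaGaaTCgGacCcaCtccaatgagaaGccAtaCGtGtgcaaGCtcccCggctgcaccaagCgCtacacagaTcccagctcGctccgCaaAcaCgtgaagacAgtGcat
Gli2: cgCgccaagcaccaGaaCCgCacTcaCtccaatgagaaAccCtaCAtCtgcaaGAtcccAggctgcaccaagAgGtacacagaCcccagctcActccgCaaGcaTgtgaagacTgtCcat
Gli3: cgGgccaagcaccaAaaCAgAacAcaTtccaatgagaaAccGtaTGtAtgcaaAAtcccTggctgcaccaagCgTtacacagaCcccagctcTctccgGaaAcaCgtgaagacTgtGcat
The capitals are scattered along the whole stretch. The longest run of identical coding bases was 23 between Gli1 and Gli2, 14 between Gli1 and Gli3 and 25 between Gli2 and Gli3, all shorter than the 76-base reads. A read in the coding part of these genes therefore held at least 1 base that told any pair apart. Non-coding parts were not compared. Boc and Cdon, which are also related to each other, shared a longest run of 31 bases in exon 13 of each gene, shown because it was the longest between any members compared.
Boc and Cdon: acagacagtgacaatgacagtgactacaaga
It lies at chr16:44490592-44490622 on the minus strand in Boc and at chr9:35478644-35478674 on the plus strand in Cdon.

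By annotation, Gli1 lies at chr10:127329882-127341974 on the minus strand, and Arhgap9 on the opposite strand overlaps its exons, as does the gene model Gm47200. Since no strand setting was given, reads in the shared stretch could count for either gene, and Arhgap9 itself was at 0.0336 to 0.307 FPKM. Gli2 is at chr1:118834132-119053619, Gli3 at chr13:15463235-15730026, Ptch1 at chr13:63508328-63573598, Smo at chr6:29735503-29761365 and Hhip at chr8:79965851-80058006. Boc is at chr16:44485049-44558897, Cdon at chr9:35421128-35507652 and Gas1 at chr13:60174405-60177365. Opposite-strand gene models overlap exons of Gli3 (Gm6556), Hhip (Gm27820) and Gas1 (Gm48488), and none overlaps those of Gli2, Ptch1, Smo, Boc or Cdon.

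Of the 9 genes, 8 were at 1 FPKM or more in every population, against 45.5% of all genes, and the exception was Hhip. The levels covered a wide range. The co-receptors were among the most abundant transcripts of these cells: Gas1 exceeded 98.3% to 99.4% of all genes depending on the population, Cdon 97.3% to 98.4% and Boc 94.6% to 97.1%. Smo exceeded 90.4% to 96.3% of genes. The Gli factors and Ptch1 were far lower, with Gli1 above 52.6% to 74.6% and Ptch1 above 54.4% to 59.8% of genes.

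**Figure D1:**
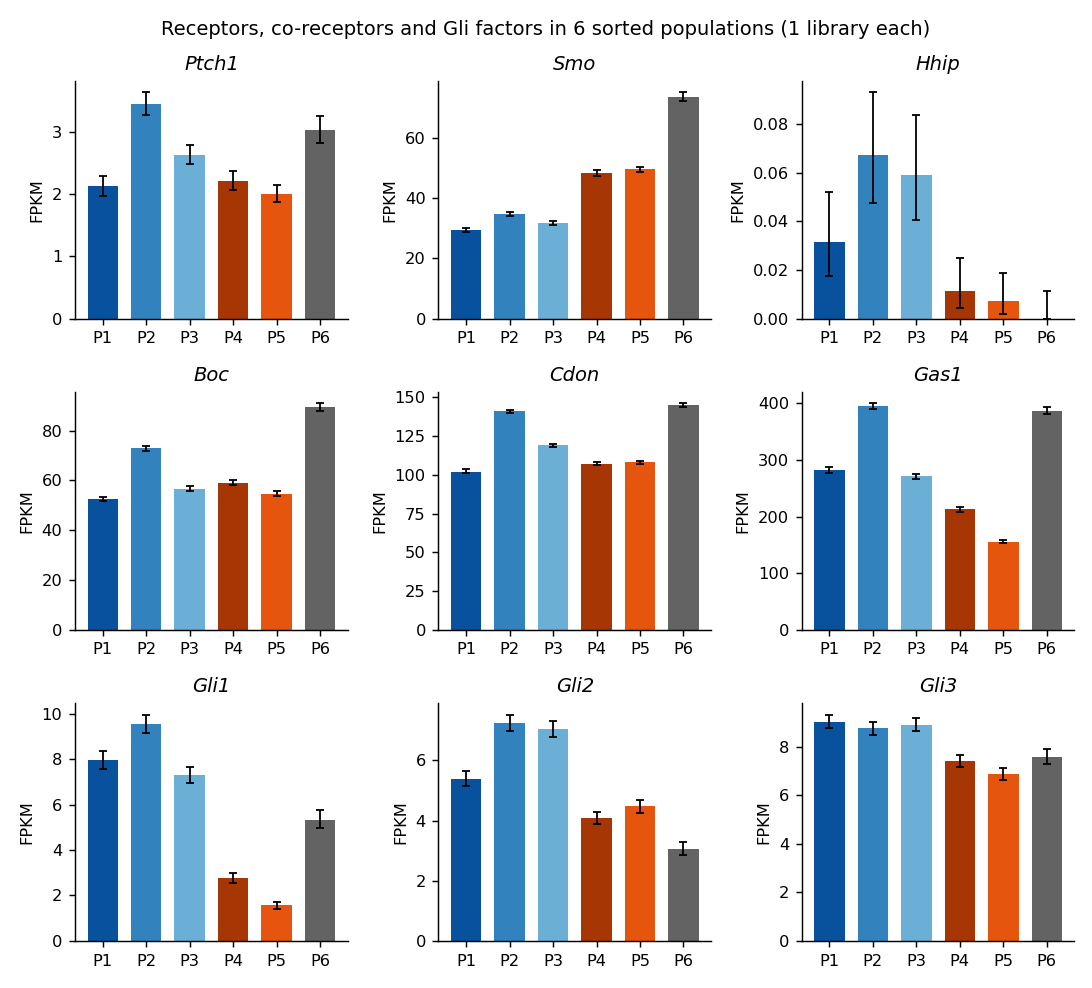
Level of each of the 9 genes in FPKM (linear axis from 0, a scale of its own in each panel) in P1 to P6, 1 library each, with bars for the value and lines for the 95% interval of counting error. Gli1 is at 7.31 to 9.56 FPKM in P1 to P3 and at 2.78 and 1.56 FPKM in P4 and P5, whereas Smo is highest in P6 at 73.6 FPKM.

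Ptch1, the receptor that binds the ligand, was at 2.13, 3.46, 2.63, 2.22, 2.01 and 3.03 FPKM in P1 to P6. P2 was highest, followed by P6 and P3, and P1 could not be separated from its neighbours in that order: the ratio of P4 to P1 was 1.04 (0.944 to 1.15) and that of P1 to P5 was 1.06 (0.961 to 1.17). P5, the lowest, was at 0.906 of P4 (0.823 to 0.996). Its highest value was 1.72 times its lowest.

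Smo, which carries the signal once Ptch1 releases it, was at 29.5, 34.7, 31.8, 48.3, 49.5 and 73.6 FPKM in P1 to P6. The 3 CD105+ populations were lowest, P4 and P5 were alike within counting error (P5 over P4, 1.02, 0.997 to 1.05), and P6 was 1.49 times P5 (1.45 to 1.53). Smo was the only one of the 8 expressed genes that was lower in P1, P2 and P3 than in both P4 and P5 in the deposited FPKM, an order that was lost after division by Gapdh. The ratio of Smo to Ptch1 was 10 to 13.8 in the CD105+ populations and 21.8 to 24.6 in the others. The summed mesothelial markers had the same order of gates, lowest in the CD105+ populations and highest in P6, although P2 and P3, and likewise P4 and P5, changed places, and their part in the Smo values was not tested.

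Hhip, the ligand-binding decoy, was close to the limit of detection. It was at 0.0316, 0.0674, 0.0593, 0.0115 and 0.00729 FPKM in P1 to P5 and listed at 0 in P6, which corresponds to 15, 37, 32, 6, 4 and 0 estimated reads. A count of 0 in P6 allows up to 0.00914 FPKM at 3 reads, a level above the value in P5. P2 and P3 did not differ beyond counting error (1.14, 0.689 to 1.88), nor did P4 and P5 (1.58, 0.375 to 7.62). The ratio was 5.85 (2.45 to 17) for P2 over P4 and 8.14 (2.89 to 31.7) for P3 over P5, so Hhip was higher on the CD105+ side by more than counting error, at levels well under the 1 FPKM asked for a call.

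Among the co-receptors, Gas1, which is held at the membrane by a lipid anchor, was at 282, 395, 271, 213, 156 and 387 FPKM in P1 to P6. P2 and P6 were highest and could not be separated on the estimated reads (1.02, 0.999 to 1.04), and P5 was lowest. Those reads rest on the shortest matched transcript, of 1155 bases, and a longer one would narrow the interval. Cdon, an immunoglobulin-family protein, was at 102, 141, 119, 107, 108 and 145 FPKM. P6 and P2 again led, and P1 was lowest, with a ratio of highest to lowest of only 1.41. Boc, the relative of Cdon, was at 52.6, 73, 56.7, 59.1, 54.7 and 89.4 FPKM, with P6 at 1.23 times P2 (1.20 to 1.25). The other 4 populations lay within 52.6 to 59.1 FPKM. All 3 co-receptors were thus highest in P2 and P6, which the ALDH and CD105 gates do not group together.

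Gas1 made up the largest part of the summed co-receptor FPKM, at 64.6%, 64.8% and 60.7% in P1, P2 and P3, at 56.3% and 49% in P4 and P5, and at 62.3% in P6. The share of Cdon was largest in P5 at 33.9%, and that of Boc was between 12% and 17.2%. The sum itself was 437, 609, 447, 379, 319 and 621 FPKM. These shares rest on the transcript length that the authors' software assigned to each gene.

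Gli1, the activator that is itself a target, was at 7.95, 9.56, 7.31, 2.78, 1.56 and 5.34 FPKM in P1 to P6. The 3 CD105+ populations were highest, P6 was in between and the 2 CD105- CD140a+ populations were lowest. In the deposited FPKM, every step in the order from P2 through P1, P3, P6 and P4 to P5 exceeded counting error. The smallest was that of P1 over P3 at 1.09 (1.02 to 1.16). Scaling to a common sum shifted the median of genes at 1 FPKM or more in all 6 libraries by -0.04 in P1 and 0.03 in P3 (log2). No interval was computed for that step after scaling. Its highest value was 5.82 times its lowest after 0.1 FPKM was added to both, the widest range of the 8 expressed members, while 15.5% of 12904 expressed genes had as wide a range and the median gene had 1.63.

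Gli2, the main activator, was at 5.38, 7.25, 7.04, 4.08, 4.47 and 3.06 FPKM. P2 and P3 were highest and did not differ beyond counting error (1.03, 0.977 to 1.09), and P6 was lowest, at 0.750 of P4 (0.686 to 0.819). Gli3, the main repressor, was the most even of the 9 genes, at 9.04, 8.76, 8.90, 7.40, 6.88 and 7.6 FPKM. P1, P3 and P2 could not be separated from their neighbours in that order, nor P6 from P4 (1.03, 0.975 to 1.08). As wide a range as that of Gli3 was seen in 77.1% of expressed genes.

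The balance of the 3 factors therefore differed between the gates. Gli1 held 35.5%, 37.4% and 31.4% of the summed Gli FPKM in P1, P2 and P3, 19.5% and 12.1% in P4 and P5, and 33.4% in P6. The ratio of Gli1 to Gli3 was 0.879, 1.09 and 0.821 in the CD105+ populations, 0.376 and 0.227 in the CD105- CD140a+ populations and 0.702 in P6. Gli3 was the largest part in every population except P2, at 40.4% and 38.3% in P1 and P3, 51.9% and 53.3% in P4 and P5 and 47.5% in P6. These ratios compare genes within a library, so a single scaling factor per library leaves them as they are, whereas quantile scaling does not.

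**Figure D2:**
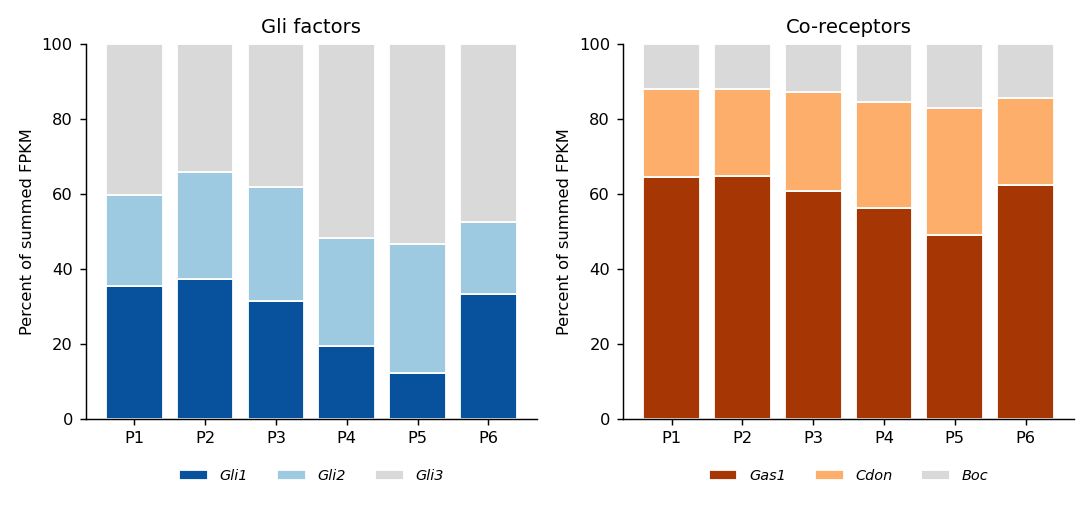
Share of each gene in the summed FPKM of the Gli factors (left) and of the co-receptors (right), in percent, for P1 to P6, 1 library each. The Gli1 share is 31.4% to 37.4% in the CD105+ populations, 12.1% to 19.5% in P4 and P5 and 33.4% in P6, and the Gas1 share is lowest in P5 at 49%.

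The first comparison set CD105+ against CD105- cells at matched ALDH activity. Gli1 was 3.44 times as high in P2 as in P4 (3.15 to 3.76) and 4.68 times as high in P3 as in P5 (4.18 to 5.25). It was the only member past the 2-fold threshold used by the study, in 1 of 8 members tested for each pair. Of all genes tested, 4.90% were called higher and 7.63% lower in P2 against P4, and 7.33% higher and 6.29% lower in P3 against P5, and beside these shares 1 call in 8 is no result about the members as a set. Gas1 was the next in size, at 1.85 (1.81 to 1.90) and 1.74 (1.69 to 1.78), followed by Gli2 at 1.78 (1.67 to 1.89) and 1.58 (1.49 to 1.68). Ptch1 was at 1.56 (1.43 to 1.70) and 1.31 (1.20 to 1.43). Smo went the other way, at 0.719 (0.698 to 0.741) and 0.642 (0.623 to 0.661). The median log2 ratio of the members, after 0.1 FPKM was added, was 0.51 and 0.37, against -0.08 and -0.09 for all genes.

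P1, the population with high ALDH activity, was compared with P4, which had the second highest Aldh1a2 level at 285 FPKM. Gli1 was 2.86 times as high in P1 (2.61 to 3.14) and was again the 1 member of 8 past 2-fold, where 4.13% of all genes were called higher and 10.1% lower. Smo was at 0.610 (0.591 to 0.631) of its level in P4, and Ptch1 could not be separated between them (0.961, 0.871 to 1.06). The members' median log2 ratio was 0.12, against -0.13 for all genes.

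Taking the 3 CD105+ populations together, 4 of the 8 members (Gli1, Gli2, Gli3 and Gas1) were higher in each of P1, P2 and P3 than in both P4 and P5, and 1 (Smo) was lower. Among all genes 18.0% were higher and 37.9% lower by the same rule. Gli1 alone was past 2-fold in all 6 pairs, with its lowest CD105+ value 2.63 times its highest CD105- value, where 1.12% of all genes met this rule in the higher and 3.72% in the lower direction. Which of the other members kept apart depended on scaling: Ptch1 joined under median-of-ratios and quantile scaling, and Cdon under median of ratios. After division by Gapdh 7 members were higher and Smo was not apart. That division shifted the median of genes at 1 FPKM or more in all 6 libraries by 0.21 to 0.28 in P1 to P3 (log2). In P4 and P5 the shift was -0.22 and -0.33. Shares over all genes were not computed for other scalings, so these counts are no result about the members. Gapdh was itself at 214, 218 and 224 FPKM in P1 to P3 and at 302 and 326 FPKM in P4 and P5. The mesothelial marker sum was 97.3 to 197 FPKM on one side and 1128 to 1379 FPKM on the other, and its part in these differences was not tested.

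The second comparison concerned ALDH activity within a CD105 gate. In P1 against P2, no member passed 2-fold, where 0.957% of genes were called higher and 4.23% lower. Of the 8 expressed members, 7 were nevertheless lower in P1 than in P2 by more than counting error, from Ptch1 at 0.617 (0.564 to 0.673) through Gas1 at 0.715 (0.701 to 0.730) to Smo at 0.848 (0.820 to 0.878). The exception was Gli3 at 1.03 (0.987 to 1.08). The share of all genes lower beyond counting error was not computed, so this count is no result about the members. The median log2 ratio was -0.44, against -0.05 for all genes. Marker sums also differed between these libraries, at 4.19 against 231 FPKM for acinar, 109 against 231 FPKM for mural (4 of 5 tested past 2-fold lower, median log2 ratio -1.40) and 25.8 against 43.1 FPKM for myeloid markers (median -0.83). Col3a1, a collagen gene that fibroblasts express highly, was listed at 0 in P2 and at 2100 FPKM or more elsewhere. The other listed fibroblast markers were at 84.6 to 5871 FPKM in P2, among them Col1a1 at 1618 and Col1a2 at 1593 FPKM. Why Col3a1 alone was listed at 0 was not tested, and that 0 should not be read as a lack of its RNA in P2. The part of the marker sums in the member values was not tested either.

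In P2 against P3, again none of the 8 members passed 2-fold, and 1.09% of genes were called higher and 2.56% lower. Gas1 was at 1.46 (1.43 to 1.49), Gli1 and Ptch1 each at 1.31, Boc at 1.29 and Cdon at 1.19, whereas Gli2 (1.03, 0.977 to 1.09) and Gli3 (0.985, 0.944 to 1.03) could not be separated. In P4 against P5, none passed 2-fold either, where 3.93% were called higher and 1.44% lower. Gli1 came nearest at 1.78 (1.56 to 2.03), followed by Gas1 at 1.37 (1.33 to 1.40). Gli2 was lower in P4, at 0.914 (0.853 to 0.979), and Smo could not be separated. In the deposited FPKM, Gli1, Gas1, Boc and Ptch1 were thus higher at intermediate than at low ALDH in both CD105 gates. Each exceeded counting error in both pairs, Ptch1 only barely in P4 against P5 (1.1, just above 1 to 1.21). The share of all genes that did so in both pairs was not computed, so this is no result about the members as a set. All 10 acinar markers were past 2-fold higher in the same pairs, with sums of 231 against 24.4 FPKM and 1233 against 149 FPKM, and their part in these values was not tested. The members' median log2 ratio was 0.30 in P2 against P3 and 0.11 in P4 against P5, with -0.03 and -0.04 for all genes.

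The third comparison asked where P6 stood apart from all 5 CD140a+ populations. No member was past 2-fold against each of P1 to P5, where 6.25% of genes were called higher and 4.63% lower. Smo, Boc and Cdon were higher in P6 than in every other population, at 1.49, 1.23 and 1.03 times the highest of them, and Gli2 was lower than in every other. The share of all genes with P6 highest or lowest was not computed, so these counts are no result about the members. Gas1 and Ptch1 lay within the range of P1 to P5, as did Gli1, at 0.558 of P2 (0.514 to 0.607) and 3.42 times P5 (3.02 to 3.88). P6 thus held Gli1 at more than 3 times the level of P5 with Pdgfra at 5.36 FPKM. The mesothelial sum was highest in P6, at 3692 FPKM, with Msln at 171 FPKM. The endothelial marker sum was 113 FPKM in P6 against 1.93 to 19.1 FPKM elsewhere. Most of it came from Esam at 62 FPKM and Kdr at 46.9 FPKM. Only 3 of the 10 endothelial markers reached 1 FPKM in P6, and Pecam1 and Cdh5 were at 0.992 and 0.343 FPKM. The part of the mesothelial and endothelial markers in the P6 values was not tested.

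The ligands themselves were barely detected. Shh was at or below 0.454 FPKM, Ihh at or below 0.0587 FPKM and Dhh at or below 0.0896 FPKM, and all 3 were listed at 0 in P6. Of 8 ligand and processing genes, 3 were expressed at 1 FPKM or more in at least 1 of P1 to P5: Hhat, the enzyme that attaches a fatty acid to the ligand, Disp1, which releases the ligand from the cell that makes it, and Scube3, a secreted relative of proteins that aid this release. Hhat was even, at 2.57 to 3.26 FPKM. Disp1 was at 8.89, 6.38, 7.96, 22.6, 23.7 and 33 FPKM and Scube3 at 0.161, 0.349, 0.983, 1.65, 2.58 and 3.92 FPKM in P1 to P6. Both were past 2-fold lower in P2 against P4 and in P3 against P5, where 7.63% and 6.29% of all genes were called lower.

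Of 4 other receptors and binding proteins, 3 were expressed. Lrp2, or megalin, an endocytic receptor that can bind Shh, was at 0.261, 0.250, 0.923, 11.2, 10.9 and 40.8 FPKM, the widest difference of the list. Gpc3, a glypican that competes for ligand, was at 362, 242, 164, 145, 43.8 and 293 FPKM, and Gpc6 at 12.6, 12.7, 8.52, 6.09, 2.52 and 10.9 FPKM. In P2 against P4, Gpc6 was past 2-fold higher (2.07) and Lrp2 lower, and Gpc3 was not called (1.67). The median log2 ratio of these 3 genes was 0.74, against -0.08 for all genes. In P3 against P5, Gpc3 and Gpc6 were past 2-fold higher and Lrp2 lower, with a median of 1.72, against -0.09. Of all genes, 4.90% and 7.33% were called higher and 7.63% and 6.29% lower in these pairs. Gpc3 and Gpc6 also differed within the CD105- gate, at 3.3 and 2.36 in P4 against P5. There 3.93% of all genes were called higher and 1.44% lower. The folds of Gpc3 and Gpc6 are of FPKM + 0.1.

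The 21 cytoplasmic regulators, which include Sufu, the protein that holds Gli factors in the cytoplasm, and Kif7, the kinesin that organizes them at the tip of the cilium, gave 1 call in the CD105 comparisons. None was past 2-fold in P2 against P4 or in P3 against P5, and 1, Arrb2 (an arrestin that takes part in moving Smo to the cilium), was lower in P1 against P4. Of all genes, 4.90%, 7.33% and 4.13% were called higher and 7.63%, 6.29% and 10.1% lower in these pairs, in the order named. Sufu was at 7.99 to 11.5 FPKM, Kif7 at 2.63 to 3.67 FPKM and Spop, which directs Gli proteins to degradation, at 49.4 to 60.8 FPKM. None of the 20 genes of the primary cilium was past 2-fold in any comparison. By the rule of groups that do not overlap, 3 of the 21 regulators were higher and 8 lower in the CD105+ populations, and 1 of the 20 cilium genes (Tulp3) was higher and 11 were lower, beside 18.0% higher and 37.9% lower among all genes. In P6 the cilium genes had a median log2 ratio of 0.31 to the mean of P1 to P5, beside 0.30 for the members and 0.08 for all genes. The same median was -0.01 for the regulators, 1.24 for the ligand and processing genes and 0.62 for the other receptors and binding proteins.

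Of 23 genes known as Hedgehog targets beyond the members, 12 were tested in P2 against P4, with 3 past 2-fold higher (Bmp4, Sfrp1 and Hsd11b1) and 1 lower (Ccnd1). In P3 against P5, 13 were tested, with 5 higher (the same 3 with Foxf2 and Grem1) and 1 lower (Ccnd1). Among all genes, 4.90% and 7.33% were called higher and 7.63% and 6.29% lower in these pairs. In P1 against P4, 1 was higher (Sfrp1) and 2 were lower (Ccnd1 and Tgfb2) of 12, beside 4.13% and 10.1% of all genes. Within the CD105- gate, Foxf2 and Sfrp1 were also past 2-fold higher in P4 against P5, at 2.37 and 2.4 (FPKM + 0.1). There 2 of 12 were higher and 0 lower, beside 3.93% and 1.44% of all genes. Grem1 was at 0.013 FPKM in P1 and at 1.16 FPKM in P3. In P1 against P2, none of 12 was higher and 2 were lower (Bmp4 and Tgfb2), beside 0.957% and 4.23% of all genes. Against each of P1 to P5, 2 of 13 were higher and 3 lower in P6, beside 6.25% and 4.63% of all genes. Their median log2 ratio of P6 to the mean of P1 to P5 was -1.31, against 0.08 for all genes. Sfrp1, a secreted Wnt inhibitor, was at 78.9, 74.9, 54.3, 24.4, 10.1 and 0.628 FPKM in P1 to P6. Hsd11b1, which regenerates active glucocorticoid, was at 8.53, 16, 14.2, 4.53, 4.79 and 2.71 FPKM. Ccnd1, the cell cycle gene cyclin D1, was at 11.9, 8.78, 22.4, 49.2, 59.3 and 13.7 FPKM, opposite in order to Gli1 across the CD105 gate. Bmp4 was at 2.45, 9.05, 6.32, 1.47, 1.02 and 36.4 FPKM, with P6 highest. By the rule of groups that do not overlap, 7 of 13 were higher in the CD105+ populations (Bcl2, Foxf2, Bmp4, Sfrp1, Osr1, Hsd11b1 and Snai1) and 3 were lower (Ccnd1, Bmp2 and Tgfb2), beside 18.0% and 37.9% of all genes. Many of these genes answer to other pathways as well.

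**Figure D3:**
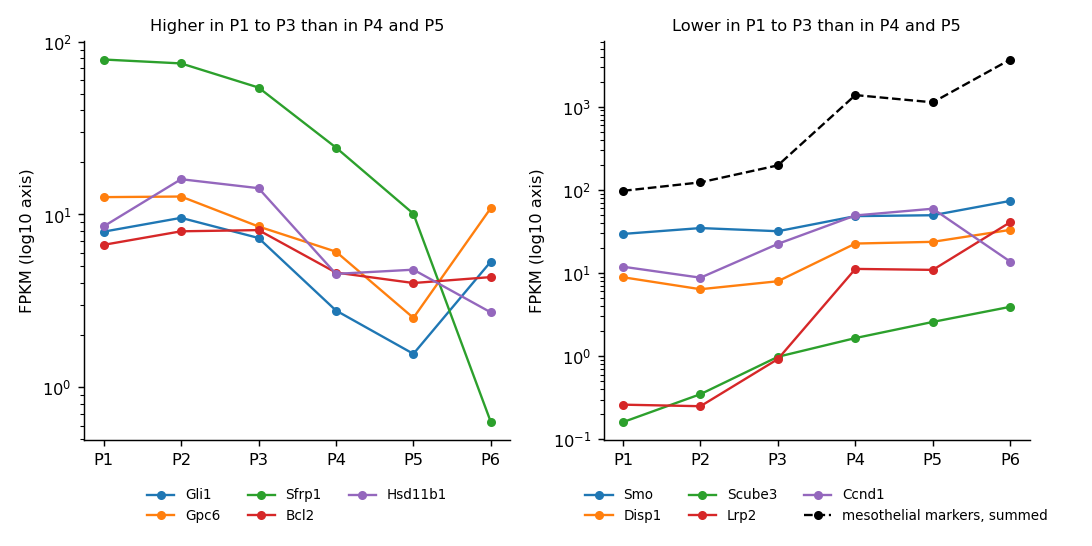
FPKM (log10 axis) in P1 to P6, 1 library each, of Gli1 and 4 listed genes that were higher (left), and of Smo and 4 listed genes that were lower (right), in P1 to P3 than in P4 and P5. The dashed line is the summed FPKM of the mesothelial markers, at 97.3 to 197 in P1 to P3 and 3692 in P6; Gli1 and Gpc6 are higher in P6 than in P5, whereas Hsd11b1 and Sfrp1 are lowest in P6.

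The classical targets among the members did not share 1 order across the populations. Gli1 was lowest in P5 and lay in P6 between the CD105+ and CD105- CD140a+ values, Hhip was listed at 0 in P6, and Ptch1 was second highest in P6. Over the 6 libraries, Pearson's r of log2(FPKM + 0.1) with Gli1 was 0.93 for Gli3, 0.85 for Gas1, 0.65 for Ptch1, 0.54 for Gli2 and -0.52 for Smo. The 6 points are the libraries of these sorts, and a high r over so few points is a description only. The 5 genes most like Gli1 of 12903 were Gm15612 (0.9970), Slc2a10 (0.9933), the estrogen receptor gene Esr1 (0.9925), Xpot (0.9923) and Ypel4 (0.9908), whereas Gli3 ranked 115. Esr1 was at 5.59, 6.73, 5.82, 2.89, 1.53 and 4.29 FPKM. The 5 most like Hhip were Prpsap1, D630003M21Rik, Tbx3, Ginm1 and Obsl1, with r from 0.9924 to 0.9975, although Hhip lies below the 0.1 FPKM added and its pattern rests on few reads.

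The promoters were searched for the letters GACCACCCA, the core of the Gli binding motif, on both strands. RefSeq promoters of 300 bases (build GRCm38) were matched for 7 of the 9 genes, namely Cdon, Gas1, Gli2, Gli3, Hhip, Ptch1 and Smo. None of the 7 held these letters, which were in 83 of 32851 promoters (0.253%), and nothing beyond this window was searched.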

How the data were processed

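RNA of 6 sorted populations was made into libraries (NEBNext Ultra) and sequenced from 1 end for 76 bases. The submitters' processing notes name TopHat2 2.0.7, Cufflinks 2.1.1 and build mm10; their roles, the annotation and the strand setting were not given in the sources used here. The authors deposited FPKM per gene for each library. Rows sharing a symbol (495 of 23847) were summed. Ratios of FPKM + 0.1, which understate changes of low genes, were taken for genes with 1 FPKM or more in a compared library and called past 2-fold; a P6 call had to pass each of P1 to P5. The ratios printed with intervals are of FPKM with nothing added.

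Depth was recovered from low values of 3316 genes with a single GENCODE M21 transcript of at least 800 bases, assuming fragments of 200 bases; 53.0% to 58.5% of these values came within 0.05 of whole reads. Estimated reads used the shortest matched transcript and are approximate. Intervals (95%) are exact Poisson for levels and conditional binomial for ratios, and 3 reads set the floor for 0. Values were computed with scipy 1.17.1, pandas 2.3.3 and numpy 2.4.6 under Python 3.11.15 and plotted with matplotlib 3.10.9. Scripts were tested on simulated data.

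The members and lists were chosen with earlier results of these data known. Named were the members, listed pathway genes, the 5 genes most correlated with Gli1 and with Hhip, gate genes and marker lists; Arhgap9, Gapdh and single markers were named after their values were seen. 1 listed gene is not reported here and was left out of the list counts. The gates of P4 to P6 were read from the study's gating plot. Alternatives were other pseudocounts, minimums, thresholds and scalings, first rows in place of sums, and leaving out a population; the joint CD105 counts were added after seeing the values.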

Additional observations from a re-analysis of the deposited data

Results flagged for a closer look

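Cdon stood in opposite orders for intermediate over low ALDH in the 2 CD105 gates, at 1.19 for P2 over P3 (1.17 to 1.20) and 0.987 for P4 over P5 (0.974 to just below 1). The difference between them was not tested, since each population had 1 library, and the second direction turned under median-of-ratios scaling and after division by Gapdh.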

How the results depend on the processing

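No paired analysis was possible because a population was a single library. Gli1 was past 2-fold in P2 against P4, P3 against P5 and P1 against P4 under every pseudocount, minimum and scaling tried, and only a 3-fold threshold lost it in P1 against P4, where 0 members were then called. No called value changed sign. Division by Gapdh, which was itself higher in P4 and P5, raised the members past 2-fold from 1 to 4 in P2 against P4 (with Gli2, Ptch1 and Gas1) and to 3 in P3 against P5 (with Gli2 and Gas1). At a 1.5-fold threshold, 1 member passed in P1 against P2 (Ptch1) and 1 in P4 against P5 (Gli1), 4 passed in P2 against P4 and 4 in P3 against P5, and 2 in P1 against P4 (Gli1 and Smo). A minimum of 5 FPKM left 5 members in P4 and 5 in P5 in place of 8. The shares of all genes under these other settings were not computed, so these counts are no result about the members.

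The median log2 ratio of the members kept its sign throughout. It was -0.37 with quantile scaling in P1 against P2, and 0.21 after Gapdh in P4 against P5. In P2 against P4 it was 0.44 with a pseudocount of 1 FPKM, 0.59 with no minimum, 0.41 with a minimum of 5 FPKM, 0.6 with median of ratios, 0.98 after Gapdh and 0.62 with quantile scaling. In P3 against P5 it was 0.3 with a pseudocount of 1 FPKM, 0.46 with median of ratios and 0.89 after Gapdh. In P1 against P4 it was 0.24 with no minimum, 0.29 with a minimum of 5 FPKM, 0.26 with median of ratios, 0.61 after Gapdh and 0.28 with quantile scaling. For P6 it was 0.35 with a common sum, 0.23 with median of ratios, 0.16 after Gapdh, 0.22 with quantile scaling and 0.41 without P2. The Gas1 share of the co-receptors under quantile scaling was 62.1%, 62.4%, 61.1%, 57.2%, 49.6% and 63.7% in P1 to P6.

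The listed pathway, cilium and target genes past 2-fold, 2 in P1 against P2, became 1 with a pseudocount of 1 FPKM, with median of ratios, Gapdh or quantile scaling and at 3-fold, 6 with no minimum and 5 at 1.5-fold. From 1 in P2 against P3 they became 5 with no minimum, 2 with a common sum, 3 after Gapdh and 0 at 3-fold. From 4 in P4 against P5 they became 7 at 1.5-fold and 1 at 3-fold. They became 13 in P2 against P4 at 1.5-fold (from 8), 6 in P3 against P5 at 3-fold (from 11), 14 at 1.5-fold and 4 at 3-fold in P1 against P4 (from 9), and 11 at 1.5-fold in P6 (from 6). The members apart between the CD105 gates numbered 5 to 7 with other scalings or without any 1 population. For the counts of listed genes and of members apart, too, the shares of all genes under other settings were not computed. Scalings other than Gapdh shifted the medians of genes at 1 FPKM or more in all 6 libraries by at most 0.15 in size (log2). Division by Gapdh shifted them by 0.28 in P1 and -0.33 in P5. Why results moved was not tested, and depth limited Hhip most, with 37 estimated reads or fewer.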
